A study of Mus musculus with 4 samples.

Results

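The cells described here are 593 mucous gland cells from the gums (gingiva) of mice, picked from 7134 kept cells in 4 single-cell libraries. They were chosen by their own counts of UMIs (unique molecular identifiers, each standing for 1 captured RNA molecule). A cell had to hold at least 200 genes, at most 20% mitochondrial UMIs and at least 3000 UMIs. Muc5b had to reach 1% of its UMIs and exceed the sum of the keratins Krt5 and Krt14, and Dcpp1, Dcpp2, Dcpp3 and Bpifa2 together had to stay under 10%. Among the 923 mucous cells that passed so far, the 593 were those in which Spink4 plus Wfdc12 exceeded Ptprn2 plus Ptprt plus Kcnma1. The other 330 are called Ptprn2-type cells below, and the 593 are called Wfdc12/Spink4 cells.

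The 4 groups were gingiva with disease plus metformin, gingiva with disease, gingiva with metformin, and healthy gingiva, each as 1 library. Maxillary gingiva was cut out, digested with collagenase and DNase, and strained, and the study asked what metformin, a glucose-lowering drug, does in this tissue with periodontal disease in view. How many mice made up a library, their strain and age, how disease was brought about and how much metformin was given are not stated in the sources used here. With 1 library in a group there was no replicate check, so no test was made and every interval below is a 95% interval for counting error alone, too narrow where a gene's UMIs sit in a few cells.

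Mucous cells of salivary glands make and store gel-forming mucins, very large and heavily sugar-coated proteins that give saliva its viscosity and coat the oral lining. Muc5b is the main such mucin of salivary glands, Agr2 is a protein of the endoplasmic reticulum needed to fold mucins, and trefoil factors such as Tff2 are small proteins secreted along with mucus. Such cells also release antimicrobial proteins and protease inhibitors. Spink4 belongs to the Kazal-type inhibitor family and is known from goblet cells of the gut, while Wfdc12 belongs to the WAP (whey acidic protein) family of secreted small inhibitors. Bpifb2 is a secreted BPI-fold protein, and Nupr1 is a small nuclear protein that cells induce under stress.

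The genes that named the cells lie, in GRCm38 by the GENCODE vM21 annotation, at chr7:141839070-141873084 on the plus strand (Muc5b, ENSMUSG00000066108), chr4:40920052-40931395 on the plus strand (Spink4, ENSMUSG00000028415) and chr2:164189231-164190608 on the minus strand (Wfdc12, ENSMUSG00000042845). Agr2 (ENSMUSG00000020581) lies at chr12:35992907-36004087 on the plus strand, Bpifb2 (ENSMUSG00000027481) at chr2:153875045-153895270 on the plus strand and Nupr1 (ENSMUSG00000030717) at chr7:126623249-126630861 on the minus strand. All values below are sums over the whole gene.

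The library totals ran from 12507787 to 22333858 UMIs. There were 207 Wfdc12/Spink4 cells in the disease plus metformin library, 129 in disease, 149 in metformin and 108 in healthy gingiva. They were 12.5% of kept cells in disease plus metformin, 7.62% in disease, 6.02% in metformin and 8.26% in healthy gingiva, yet they held 45.5%, 24.1%, 26.2% and 22.6% of the UMIs of kept cells, in the same order of libraries. Their median depth was 22406, 21471, 30848 and 19056.5 UMIs, again in that order, with 4084, 4096, 5118 and 3766.5 genes. No cell barcode was shared between Wfdc12/Spink4 cells of different libraries, and 8 barcodes were shared between libraries in all, 1 of them with a Wfdc12/Spink4 cell.

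Of the mucous cells alone, the Wfdc12/Spink4 cells made up 65.5% in disease plus metformin (exact Clopper-Pearson interval 60.0% to 70.7%), 72.1% in disease (64.9% to 78.5%), 72.0% in metformin (65.3% to 78.0%) and 48.9% in healthy gingiva (42.1% to 55.7%). Healthy gingiva held the smallest share. The intervals cover counting error within each library only, so whether they overlap is no test between conditions. The share in healthy gingiva was 58.0% with at most 10% mitochondrial UMIs per cell. The rule's own values set these shares, and shares of cells cannot be told apart from differences in how well each cell type came through the digestion.

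The thresholds of the rule cut through a continuous range in depth and in the last comparison. The Wfdc12/Spink4 cell nearest the depth limit held 3005 UMIs and the nearest cell outside it 2988, and 555 cells failed on depth alone. For Muc5b the nearest values were 1.05% inside and 0.897% outside, and for the Dcpp and Bpifa2 sum 9.78% inside and 11.5% outside. In the last comparison 30 cells lay within 2 UMIs of the limit on the inside and 34 on the outside.

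**Figure D1:**
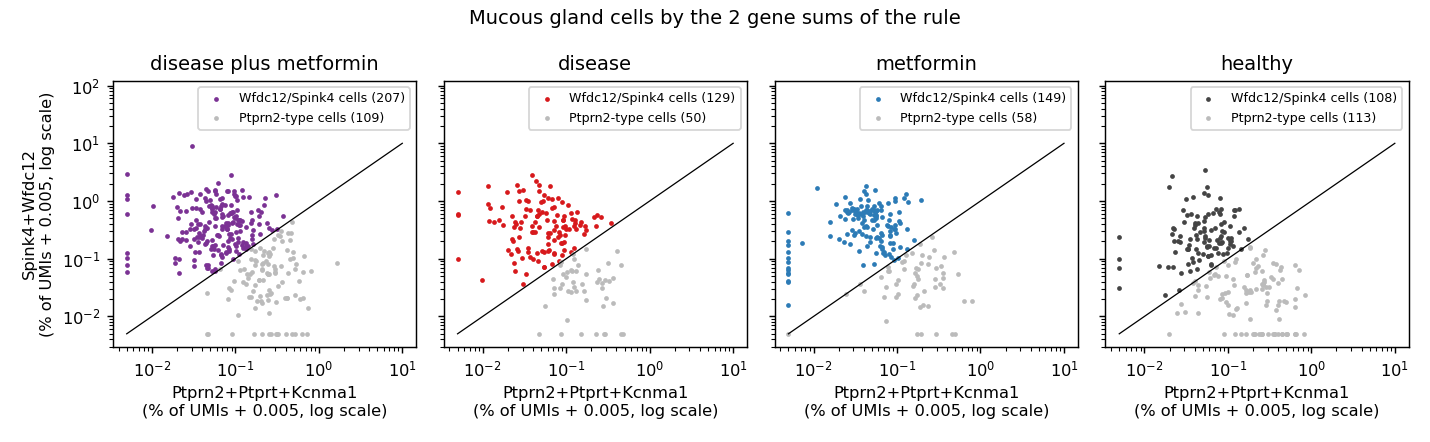
Each point is 1 mucous gland cell, with the sum of Ptprn2, Ptprt and Kcnma1 on the x axis and the sum of Spink4 and Wfdc12 on the y axis, both as percent of the cell's UMIs plus 0.005 on log scales, for the 4 libraries. Coloured points above the diagonal are the 593 Wfdc12/Spink4 cells and grey points are the 330 Ptprn2-type cells; cells of both kinds lie along the diagonal without a gap.

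The name these cells were given, after Spink4, was only partly borne out. Muc5b, Agr2 and Bpifb2 were found in all of them, and Nupr1 in all but 1. Wfdc12 rather than Spink4 gave most UMIs of the inhibitors that chose the cells: it exceeded Spink4 in 475 of 593 cells, Spink4 was higher in 104, and 44 cells held no Spink4 UMI against 4 with no Wfdc12. Summed over cells, Spink4 was at 1083, 682, 1686 and 693 CPM (counts per 1000000 UMIs of the summed cells) in disease plus metformin, disease, metformin and healthy gingiva. Wfdc12 was at 4639, 4730, 3681 and 3192 CPM in the same libraries. Wfdc12 had the more UMIs of the pair in every library, and UMIs of different genes were not scaled by length.

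Both inhibitors were spread unevenly among the cells. The 10% of cells richest in Spink4 held 55.7% of its UMIs in disease plus metformin, 57.0% in disease, 45.1% in metformin and 52.6% in healthy gingiva. For Wfdc12 the richest 10% held 43.0%, 44.0%, 38.4% and 49.8%. Cells rich in one were not regularly rich in the other: the rank correlation across cells of a library, which share depth and free RNA, was −0.045 in disease plus metformin (207 cells), 0.093 in disease (129), 0.19 in metformin (149) and −0.24 in healthy gingiva (108). After each cell was thinned to 3000 UMIs, Spink4 was found in 70.5%, 55.0%, 82.6% and 68.5% of Wfdc12/Spink4 cells and in 1.97%, 0.976%, 5.62% and 0.901% of keratinocyte barcodes, which should lack it. Without thinning, Spink4 was found in 93.2%, 92.2%, 94.6% and 88.9% of the cells.

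The 7 secretory products described next differed little between libraries, while others, given with the comparisons below, differed more. The 7 leave out Wfdc12, given above, and Smgc and Muc19. By mean CPM over the 4 libraries these stood at 4061, 4057 and 3529, above Pglyrp1, the last of the 7, at 2528. Smgc was at least 2-fold apart in all 4 comparisons below. Tff2 took the most UMIs, at 118920 CPM in disease plus metformin, 100534 in disease, 77840 in metformin and 111861 in healthy gingiva. Muc5b, by which the cells were chosen, was at 68007, 70157, 71458 and 70264 CPM. Bpifb2 varied as little, at 27882, 29037, 29042 and 30808 CPM, and Agr2 was at 13064, 15384, 13860 and 11932 CPM. Further down came Wfdc2, a WAP-family protein (11855, 9612, 11507 and 8392 CPM), Gp2, a GPI-anchored glycoprotein of secretory granules (6795, 6368, 9544 and 9178 CPM), and Pglyrp1, a protein that binds bacterial cell walls (2680, 2529, 2347 and 2557 CPM). All values run in the order disease plus metformin, disease, metformin, healthy. None of these 7 genes was 2-fold apart in any of the 4 comparisons below.

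Aqp5, the water channel of salivary acini, was at 1576, 1371, 1238 and 1319 CPM, and Pigr, the receptor that carries IgA into saliva, at 929, 1212, 1466 and 1599 CPM, in the same order of libraries. Of the transcription factors of secretory cells, Spdef, which drives mucous differentiation, was at 272, 291, 288 and 304 CPM, and Xbp1, a regulator of the secretory apparatus, at 341, 338, 406 and 353 CPM. The muscarinic receptor Chrm3, which carries the nerve signal for secretion, was at 339, 359, 315 and 364 CPM. These 5 genes differed by less than 2-fold in each of the 4 comparisons; other genes of the same lists, such as Bhlha15 and Galnt7 below, differed more.

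**Figure D2:**
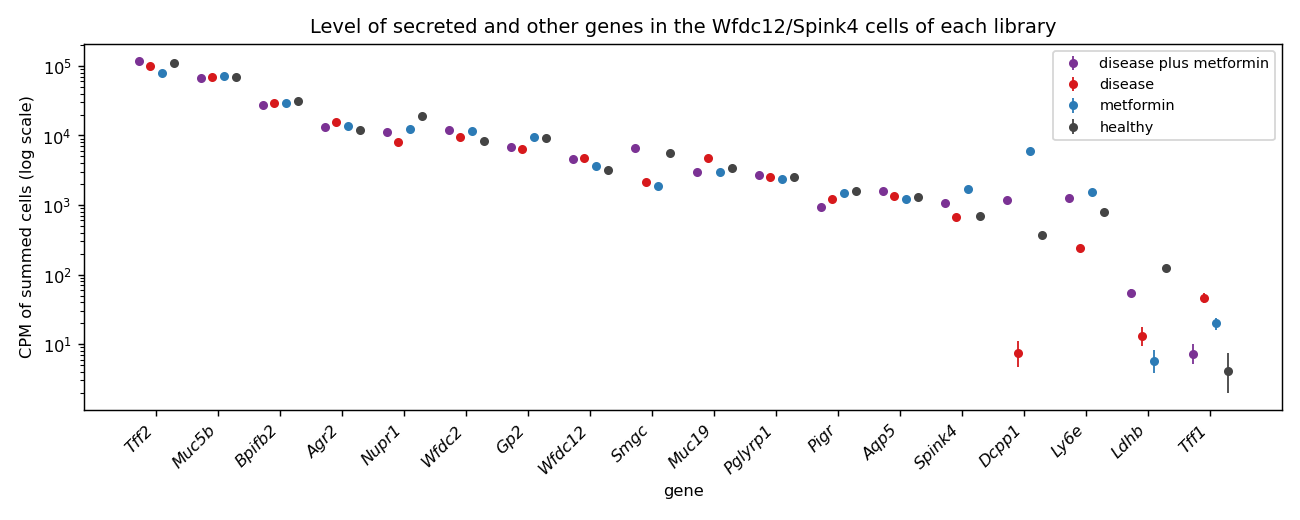
Level of 18 genes in the Wfdc12/Spink4 cells of each library, as CPM of the summed UMIs on a log scale, with exact Poisson 95% intervals for counting error (most are smaller than the points). Tff2, Muc5b, Bpifb2 and Agr2 lie close together in all libraries, while Smgc, Dcpp1, Ly6e, Ldhb and Tff1 differ between them.

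Compared with the Ptprn2-type cells of the same library, the Wfdc12/Spink4 cells were higher mostly in short genes and lower mostly in long ones. Of 6027 genes with enough UMIs, 65 (1.08%) were at least 2-fold higher in all 4 libraries and 434 (7.2%) at least 2-fold lower in all 4. Since the same UMIs chose the cells, these are descriptions of the selection and no test was made. The higher genes were mostly short genes of small proteins. Next to the inhibitors of the rule stood Wfdc18, another WAP-family gene. It was at 506, 615, 1158 and 1098 CPM in Wfdc12/Spink4 cells of disease plus metformin, disease, metformin and healthy gingiva. Ptprn2-type cells had 76.2, 193, 290 and 101 CPM in the same order. In metformin, Wfdc18 was at 3264 CPM in 42 cells with at least 1% Dcpp and Bpifa2 UMIs and 363 CPM in the other 107. Sec61g, a subunit of the channel that takes new proteins into the endoplasmic reticulum, was at 1784, 1996, 2426 and 1933 CPM against 534, 759, 1040 and 776 CPM. Of 33 nuclear-encoded respiratory chain genes 5 were 2-fold higher in all libraries and none was lower, with a median log2 ratio of 0.94; Uqcrq, a subunit of complex III, was at 894, 940, 984 and 969 CPM against 246, 298, 409 and 401 CPM.

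Most of the lower genes were long, but not all. Taco1, of 7.55 kb, and 4 of 13 mitochondrially encoded genes were also at least 2-fold lower in all 4 libraries. The 13 had a median log2 ratio of −1.04. The median span of the lower genes from start to end was 195 kb, against 4.12 kb for the higher genes and 25.9 kb for the rest. Of the lower genes 78.3% exceeded 100 kb, as did 0% of the higher and 12.4% of the other genes. Across genes, span and median log2 ratio had a rank correlation of −0.76, given as a description since genes are not independent. Camk1d, a calcium-dependent kinase gene of 421 kb, was at 815, 1114, 584 and 668 CPM in Wfdc12/Spink4 cells and at 3755, 4347, 3197 and 3969 CPM in Ptprn2-type cells. Dpp6, a 910 kb gene for a potassium channel partner, was at 31.2, 33.3, 17.5 and 24.9 CPM against 155, 156, 80.1 and 134 CPM. Ptprn2, Ptprt and Kcnma1 entered the rule as a sum set against Spink4 plus Wfdc12, so their levels reflect the choice of cells.

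Depth and RNA make-up moved with this split. The median UMI count was 22406, 21471, 30848 and 19056.5 in Wfdc12/Spink4 cells of the 4 libraries, against 8178, 9881, 9154.5 and 8997 in Ptprn2-type cells. Median mitochondrial shares were 3.63%, 3.54%, 2.64% and 4.03% against 7.53%, 7.94%, 5.92% and 8.27%. Median shares of Malat1, a nuclear RNA, were 1.88%, 2.62%, 1.40% and 2.56% against 4.79%, 3.96%, 7.20% and 4.63%. The part these differences play in the gene differences was not tested, and whether reads in introns were counted is not given in the sources used here.

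**Figure D3:**
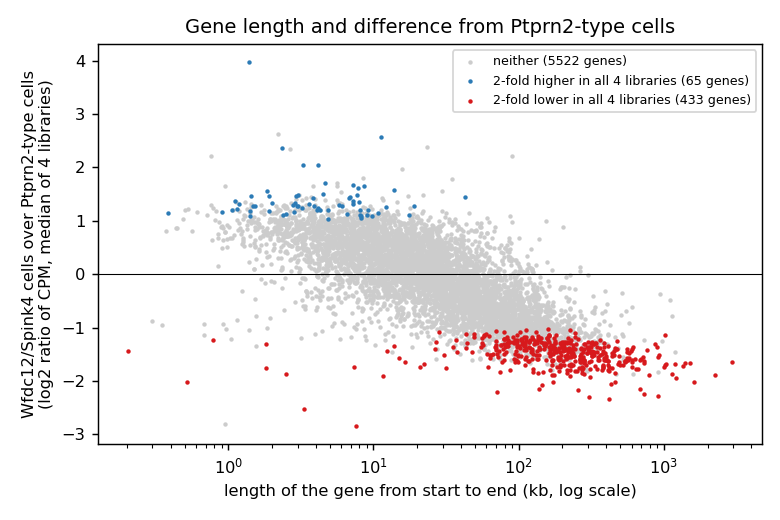
Each point is 1 gene, with its length on the x axis (kb, log scale) and the median over the 4 libraries of its log2 CPM ratio, Wfdc12/Spink4 cells over Ptprn2-type cells, on the y axis. The 65 genes higher in all libraries (blue) are short and most of the lower genes (red) exceed 100 kb; 1 lower gene has no position and is not drawn.

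The gland barcodes with at least 10% of UMIs from the Dcpp genes and Bpifa2, secreted products of serous-type gland cells, numbered 51 in metformin and 24 in healthy gingiva, and too few to compare in the other libraries (16 in disease plus metformin and 2 in disease). Of 5332 genes, 2170 (40.7%) were at least 2-fold higher in Wfdc12/Spink4 cells in both libraries and 13 (0.244%) at least 2-fold lower, with medians over all genes of 1.09 and 1.27 on the log2 scale. The 8 measured mucins and mucin partners had a median log2 ratio of 2.08 and the 20 enzymes of mucin sugar chains one of 1.77. Both lay above that shift, but so did lists without mucin genes. The median was 1.78 for the 13 mitochondrially encoded genes and 1.78 for 9 duct and luminal genes. It was lower, at 0.98, for the 33 nuclear-encoded respiratory chain genes. The value of the sugar-chain enzymes was thus not particular to them, and all these values describe the selection. The lower genes included, beside the Dcpp genes, Klk14, a serine protease (4.90 and 0.408 CPM in Wfdc12/Spink4 cells of metformin and healthy gingiva, against 112 and 426 CPM), and Wfdc18 (1158 and 1098 CPM against 15051 and 29044 CPM).

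Markers of most other cell types were low but not absent in the Wfdc12/Spink4 cells. Serous gland genes in metformin and duct and luminal genes in all 4 libraries were not low. The 21 keratinocyte genes summed to 793, 194, 1384 and 561 CPM, against 35201, 32017, 38194 and 33252 CPM in keratinocyte barcodes. The 24 serous gland genes summed to 2192, 734, 13859 and 3018 CPM. The 18 duct and luminal genes summed to 5376, 4676, 4745 and 4589 CPM. In Ptprn2-type cells that sum was 3884, 2979.5, 3288 and 2834 CPM, and in keratinocyte barcodes 140, 376, 198 and 143 CPM. All these values run in the order disease plus metformin, disease, metformin, healthy. The 10 myoepithelial genes summed to between 17.8 and 73.5 CPM, the 10 fibroblast genes to between 7.51 and 55.1 CPM with 3 to 7 of them at 0 (Dcn, a matrix protein, gave between 6.41 and 43.0 CPM of it), the 11 endothelial genes to between 35.3 and 87.2 CPM with 4 to 9 at 0 (Vwf gave nearly all of it, and Kdr was at 0 in all 4 libraries), and the 14 leukocyte genes to between 1.22 and 7.26 CPM with 5 to 13 at 0. The metformin library stood highest in keratinocyte and serous genes, and the part of this in its comparisons below was not tested.

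Disease set against healthy gingiva addressed what differed in these cells without the drug. Few genes stood apart: of 7252 measured genes, 93 (1.28%) were at least 2-fold higher and 75 (1.03%) at least 2-fold lower, with a median log2 ratio of 0.06. A gene counts as measured with at least 50 UMIs over both libraries, none of whose barcodes holds over 25%. Hspa5 and Hyou1, chaperones of the endoplasmic reticulum, were higher in disease, and Nupr1, Smgc, the class I genes H2-K1 and Psmb9 and the lactate dehydrogenase gene Ldhb were lower.

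Hspa5, the main chaperone of the endoplasmic reticulum, was at 1475 CPM in disease and 710 CPM in healthy gingiva, a log2 ratio of 1.05 (0.97 to 1.14). Hyou1, a chaperone that works with it, was at 93.1 and 42.4 CPM, a log2 ratio of 1.14 (0.81 to 1.47). Manf and Creld2, secreted or retained stress-inducible proteins of that compartment, came close to 2-fold, with log2 ratios of 0.95 and 0.96. In all, 2 of 27 genes of folding and transport in the endoplasmic reticulum were 2-fold higher and none lower, with a median log2 ratio of 0.29 against 0.06 over all measured genes. The levels of Hspa5 were 822, 1475, 1139 and 710 CPM in disease plus metformin, disease, metformin and healthy gingiva, so that healthy gingiva and disease plus metformin lay lowest. In Ptprn2-type cells Hspa5 was at 891, 1081, 1104 and 508 CPM and in keratinocyte barcodes at 110, 160, 130 and 249 CPM.

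Hspa5 and related chaperones are known to be switched on through the endoplasmic reticulum stress response element, read here as CCAAT, any 9 bases, then CCACG, on either strand. The element is shown because Hspa5, past 2-fold in disease, carries it. In the RefSeq promoters of GRCm38.p6, from 250 bases before to 50 bases after each gene's start, it was found for 7 of the 21 listed genes with a promoter in the table (33.3%) and for 37 of all 27025 genes (0.137%). A match says that these letters are present, and no site was tested here. The matches follow, read from CCAAT to CCACG with the fixed bases in capitals; those of Calr, Creld2 and the second of Hsp90b1 lie on the strand opposite to the gene.
Hspa5: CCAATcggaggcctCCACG
Hsp90b1, first: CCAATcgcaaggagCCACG
Hsp90b1, second: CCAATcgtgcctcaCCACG
Pdia6: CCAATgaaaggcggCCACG
Calr: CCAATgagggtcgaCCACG
Canx: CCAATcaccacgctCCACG
Creld2: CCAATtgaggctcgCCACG
Dnajc3: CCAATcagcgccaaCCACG
Of these genes, beside Hspa5, Creld2 was at 212 CPM in disease and 109 CPM in healthy gingiva, Hsp90b1 at 1254 and 966, Calr at 791 and 647, Pdia6 at 416 and 359, Canx at 200 and 172, and Dnajc3 at 881 and 777. All 7 had a ratio above 1 in disease, 1 of them past 2-fold, but so had 12 of the 14 listed genes with a promoter and no match, and 57.3% of all 7252 measured genes. The medians on the log2 scale were 0.29 for the 7 and 0.12 for the 14, a description with no test of the difference.

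No promoter was available for Hyou1 or Manf, so neither was searched for the element. The Hspa5 promoter is given whole, since Hspa5 had the more UMIs of the 2 chaperone genes past 2-fold. It lies at chr2:34771840-34772139 on the plus strand of GRCm38.p6, with the element in capitals 65 to 47 bases before the gene's start.
Hspa5 promoter: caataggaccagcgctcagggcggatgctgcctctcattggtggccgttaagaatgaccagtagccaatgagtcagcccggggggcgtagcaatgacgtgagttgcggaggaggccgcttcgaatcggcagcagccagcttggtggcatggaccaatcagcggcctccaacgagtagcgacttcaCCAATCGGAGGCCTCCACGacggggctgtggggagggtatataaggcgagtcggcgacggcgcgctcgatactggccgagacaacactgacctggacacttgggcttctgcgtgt

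Nupr1, one of the genes these cells were named by, was at 8030 CPM in disease and 19209 CPM in healthy gingiva, a log2 ratio of −1.26 (−1.28 to −1.24). The libraries with metformin lay between, at 11132 CPM in disease plus metformin and 12570 CPM in metformin. In Ptprn2-type cells the order was the same, at 3914 CPM in disease and 16062 CPM in healthy gingiva. Within the 18 genes of the integrated stress response, 14 were measured, and 2 were higher and 2 lower: Mthfd2, a mitochondrial folate enzyme (78.1 CPM in disease and 35.5 CPM in healthy gingiva), and Psat1, an enzyme of serine synthesis (13.1 and 6.52), were higher, and beside Nupr1 the cystine carrier Slc7a11 was lower (218 and 506). The transcription factor Atf4 was at 191 and 163 CPM. The genes of the list did not move as one group.

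Smgc, a secreted protein of the submandibular gland in mice, was at 2130 CPM in disease and 5597 CPM in healthy gingiva, a log2 ratio of −1.39 (−1.44 to −1.35). Smgc (chr15:91838265-91861438, plus strand) overlaps the mucin gene Muc19 (chr15:91838326-91934555, plus strand) in the annotation, and its reads may be split between them; Muc19 was at 4685 CPM in disease and 3455 CPM in healthy gingiva. Crisp1, a secreted cysteine-rich protein, was at 13.1 and 237 CPM, 18.1-fold lower in disease. Dmbt1, a salivary agglutinin that binds bacteria, was at 31.0 and 210 CPM and found in 16 cells in disease and 33 in healthy gingiva. Crisp1 and Dmbt1 were the only 2 genes of the serous gland list measured in this comparison. Barcodes with at least 10% Dcpp and Bpifa2 UMIs numbered 2 in disease and 24 in healthy gingiva, where they held Dmbt1 at 4049 CPM. The part of serous-type transcripts in these differences was not tested. Tff1, a trefoil factor like Tff2, went the other way, at 46.4 CPM in disease and 4.08 CPM in healthy gingiva, 11.4-fold higher in disease, and was found in 41.9% of cells against 8.33%. Secreted products thus differed in both directions.

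Of the genes of class I antigen presentation and of the interferon response, the few that passed 2-fold were lower in disease. In the interferon list this was 1 of 8 measured genes, with a median log2 ratio of −0.13 over the 8. H2-K1, a chain of the class I complex that shows peptides to killer T cells, was at 219 CPM in disease and 639 CPM in healthy gingiva, a log2 ratio of −1.54 (−1.68 to −1.41). Psmb9, a subunit of the immunoproteasome, was at 3.92 and 16.3 CPM. Of 10 measured class I genes 2 were lower and none higher, with a median log2 ratio of −0.38; class I genes are close copies of one another, so reads may be shared among them. Ly6e, an interferon-inducible surface protein that is not in the interferon list, was at 245 and 783 CPM. In the disease library Ly6e was found in 54 of 129 cells, whereas in the other libraries it was found in 206 of 207, 149 of 149 and 106 of 108 cells (disease plus metformin, metformin, healthy). After thinning to equal depth it was found in 34.9% of the disease cells against 96.1%, 96.0% and 94.4%, while keratinocyte barcodes ranged from 28.8% to 35.6%. Per cell, the median was 0 CPM in disease (upper quartile 525), against 1252 in disease plus metformin, 1547 in metformin and 746 in healthy gingiva, so the summed level in disease is an average over cells with and without a Ly6e UMI. The disease library was alone in holding many cells without one, and its thinned share was no higher than in its keratinocyte barcodes (35.6%).

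Ldhb, the heart-type subunit of lactate dehydrogenase, was at 13.1 CPM in disease and 123 CPM in healthy gingiva, 9.42-fold lower in disease, with a log2 ratio of −3.24 (−3.75 to −2.76). The other libraries were at 54.8 CPM in disease plus metformin and 5.69 CPM in metformin. Ptprn2-type cells followed the same order, at 21.6, 15.9, 8.01 and 96.1 CPM in disease plus metformin, disease, metformin and healthy gingiva, and keratinocyte barcodes stayed between 28.4 and 41.1 CPM. Respiratory chain genes encoded in the nucleus showed no such difference: of 33 measured in disease and healthy gingiva none was 2-fold apart, with a median log2 ratio of −0.02.

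Other genes at the top of this comparison were Bdh2, a dehydrogenase of ketone and lipid metabolism (41.8 CPM in disease and 4.48 CPM in healthy gingiva), Cald1, an actin-binding protein (44.7 and 7.74), and the potassium channel Kcnk2 (106 and 29.3). BC023719, annotated as an antisense gene in the class I region of chromosome 17, was at 20.9 CPM in disease and had 0 UMIs in healthy gingiva, at least 17.1-fold higher when the 0 is set to 3 UMIs of the summed cells. Whether counting used the strand is not given in the sources used here, so its reads cannot be told apart from those of overlapping genes. Thbs1, an adhesive matrix protein, was at 15.0 and 64.0 CPM, and Cyp2f2, a cytochrome P450, at 2.61 and 22.4 CPM.

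Metformin set against healthy gingiva addressed what differed under the drug without disease. Of 8335 measured genes 233 (2.8%) were at least 2-fold higher and 32 (0.384%) at least 2-fold lower in metformin, with a median log2 ratio of 0.05. Of the lists, serous gland products (4 of 6 measured), cell cycle genes (12 of 14) and keratinocyte genes (7 of 11) had most members past 2-fold upward, which leaves most of the 233 genes outside them. Ldhb and Smgc were first among the lower genes.

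Dcpp1, a demilune cell product of mouse salivary glands, was at 5980 CPM in metformin and 372 CPM in healthy gingiva, with 1167 CPM in disease plus metformin and 7.51 CPM in disease. Dcpp1, Dcpp2 and Dcpp3 are near-identical copies, and how reads were shared among them is uncertain. The rule capped their sum, so their levels are limited from above by the choice of cells. In metformin 42 of 149 cells held at least 1% of UMIs from Dcpp1, Dcpp2, Dcpp3 and Bpifa2, against 3 of 108 in healthy gingiva, 11 of 207 in disease plus metformin and 0 of 129 in disease. The log2 ratio of Dcpp1 was 4.01 over all cells and 2.50 with every cell weighted equally. Keratinocyte barcodes had 2625 CPM of Dcpp1 in metformin and 172 CPM in healthy gingiva, a difference in the same direction.

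Within the metformin library, the 42 cells with at least 1% Dcpp and Bpifa2 UMIs still had the mucous products of the other 107. Muc5b was at 88141 CPM in the 42 cells and 65161 CPM in the 107, Tff2 at 93102 and 72079 CPM, and Nupr1 at 12449 and 12615 CPM. Their median depth was 33445.5 UMIs against 27827. They held more of the keratinocyte list, at 2146 CPM against 1096 CPM, and more Wfdc18, at 3264 against 363 CPM. Ccer2, at 476 CPM against 0.810 CPM, was found in 32 of the 42 cells and 3 of the 107; in keratinocyte barcodes of the metformin library it was at 944 CPM. Smgc was lower in them, at 1010 against 2219 CPM. Such barcodes thus carried mucous, serous and keratinocyte transcripts together, and whether more than 1 cell contributed was not tested.

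Cell cycle genes were higher in metformin than in healthy gingiva: 12 of 14 measured genes of the list were at least 2-fold higher and none lower, with a median log2 ratio of 3.43. Top2a, which untangles DNA before division, was at 35.9 CPM in metformin and 4.89 CPM in healthy gingiva. Cdk1, the kinase that starts mitosis, was at 32.8 and 2.85 CPM, and Mki67, a protein of dividing cells, at 30.6 and 1.63 CPM. At least 3 UMIs of 12 mitotic genes were found in 46 of 149 metformin cells and 3 of 108 healthy cells, with 11 of 207 in disease plus metformin and 1 of 129 in disease. Thinned to 3000 UMIs, 24.2% of metformin cells held at least 1 such UMI, against 1.85% of healthy, 7.25% of disease plus metformin and 2.33% of disease cells.

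Cells with mitotic and with serous gland transcripts overlapped in the metformin library. Of the 42 cells with at least 1% Dcpp and Bpifa2 UMIs, 27 (64.3%) held 3 or more mitotic UMIs, against 19 of the other 107 (17.8%); in the other libraries no cell had both. Mitotic UMIs summed to 168 CPM in the 42 cells and 453 CPM in the other 107. Outside the Dcpp cells, 6 cells with 120 to 457 mitotic UMIs each held 87.9% of the 1676 mitotic UMIs of the 107, and the next cell held 62. Keratinocyte barcodes express the same genes, with Top2a at 231 CPM in metformin and 367 CPM in healthy gingiva.

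Keratinocyte genes were higher as well: 7 of the 11 measured passed 2-fold upward and none downward. Krt14, a keratin of the basal layer, was at 315 CPM in metformin and 77.8 CPM in healthy gingiva, and Krt17 at 51.2 and 1.22 CPM. In keratinocyte barcodes Krt14 was at 14069 and 12498 CPM. Leaving out the cells with at least 1% Dcpp and Bpifa2 UMIs left 3 of the list 2-fold apart, and leaving out those with 3 or more mitotic UMIs left 2.

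Ldhb was at 5.69 CPM in metformin and 123 CPM in healthy gingiva, 21.6-fold lower, with a log2 ratio of −4.44 (−5.04 to −3.88). It was found in 15.4% of metformin cells and 82.4% of healthy cells. Smgc was at 1888 and 5597 CPM, a log2 ratio of −1.57 (−1.61 to −1.53). The 13 mitochondrially encoded genes leaned lower with a median log2 ratio of −0.63, though none passed 2-fold, while the 33 nuclear-encoded respiratory chain genes had a median of 0.08. The mitochondrial share of UMIs was part of the choice of cells. Of the 26 genes of AMPK, mTORC1 and lipid synthesis, the pathways most often named for metformin, 25 were measured, 0 were higher and 1 lower, with a median of −0.05. BC018473, annotated as an antisense gene on chromosome 11, was at 56.9 CPM and had 0 UMIs in healthy gingiva, at least 46.5-fold higher with the 0 set to 3 UMIs.

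Disease plus metformin set against disease addressed what differed under the drug within disease. Of 8468 measured genes 171 (2.02%) were at least 2-fold higher and 67 (0.791%) at least 2-fold lower, with a median log2 ratio of −0.05. Most measured immediate-early genes (12 of 17) and 6 of 12 interferon-response genes were at least 2-fold higher with metformin, and H2-K1 and Ly6e, lower in disease than in healthy gingiva, were higher with metformin. No gene of folding in the endoplasmic reticulum passed 2-fold. The disease library is shared with the comparison of disease and healthy gingiva, so a gene that stands apart in the disease library alone appears in both with opposite signs.

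Immediate-early genes, transcription factors and phosphatases that cells induce within minutes of a stimulus or of tissue digestion, were at least 2-fold higher for 12 of 17 measured members and lower for none, with a median log2 ratio of 1.11. Fos was at 704 CPM in disease plus metformin and 329 CPM in disease, a log2 ratio of 1.10 (1.00 to 1.20). Atf3 was at 255 and 118 CPM, and Dusp1, a phosphatase that shuts off MAP kinases, at 90.2 and 24.5 CPM. Over all 22 listed genes the level was 3797, 2067, 2679 and 2193 CPM in disease plus metformin, disease, metformin and healthy gingiva. The same sum was 7844 CPM in disease plus metformin and 2952 CPM in disease in Ptprn2-type cells, and 648 and 667 CPM in keratinocyte barcodes. The difference was seen in both kinds of mucous cells and not in keratinocyte barcodes, and the part of tissue digestion was not tested.

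Interferon-response genes were at least 2-fold higher for 6 of 12 measured members and lower for none, with a median log2 ratio of 1.03. Ifitm3, a membrane protein that blocks virus entry, was at 269 CPM in disease plus metformin and 91.8 CPM in disease. Irf1, a transcription factor of the interferon response, was at 43.8 and 18.0 CPM, and Irf9 at 21.6 and 5.23 CPM. Isg15 was at 14.5 and 1.96 CPM, with 22.4% of its UMIs in 1 cell. The members past 2-fold were thus Ifitm3 and 5 genes at under 50 CPM, the others being Ifi27l2a and Xaf1.

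H2-K1 was at 558 CPM in disease plus metformin and 219 CPM in disease, and Ly6e at 1261 and 245 CPM, 5.16-fold higher. The class II gene H2-Ab1, part of the complex recognised by helper T cells, was at 25.5 CPM and found in 73 of 207 cells, while disease had 0 UMIs in 129 cells, a difference of at least 26.0-fold with the 0 set to 3 UMIs. Cd74, the chain that accompanies class II molecules, was at 0.550 and 0.327 CPM. The 14 leukocyte genes summed to 2.75 CPM in disease plus metformin and 1.96 CPM in disease. H2-Ab1 in Ptprn2-type cells was at 17.3 CPM and had 0 UMIs, and in keratinocyte barcodes it was at 1.61 and 1.03 CPM.

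Lbp, a secreted protein that binds bacterial lipopolysaccharide, was at 47.1 CPM in disease plus metformin and 0.980 CPM in disease, a log2 ratio of 5.59 (4.02 to 7.87 from 257 and 3 UMIs). Crisp1 was at 90.5 and 13.1 CPM. Olfm4, a secreted glycoprotein of gut and gland epithelium, was at 2630, 937, 1364 and 778 CPM in disease plus metformin, disease, metformin and healthy gingiva, and Smgc was at 6613 and 2130 CPM in disease plus metformin and disease. Tff1 was lower, at 7.33 CPM in disease plus metformin and 46.4 CPM in disease. Galnt7, an enzyme that adds sugars to mucins, was at 320 and 824 CPM and was the 1 of 22 measured genes of mucin sugar chains past 2-fold. Colec12, a scavenger receptor, was at 15.2 and 88.5 CPM (log2 ratio −2.54, or −1.50 with every cell weighted equally), and Kcnk2 at 19.8 and 106 CPM.

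Of the 27 genes of folding and transport in the endoplasmic reticulum none was 2-fold apart between disease plus metformin and disease, and their median log2 ratio was −0.41 against −0.05 over all measured genes. Bhlha15, a transcription factor that scales up secretory cells, was at 19.2 CPM in disease plus metformin and 46.1 CPM in disease, with 52.2 CPM in metformin and 54.6 CPM in healthy gingiva, so disease plus metformin stood apart from the rest.

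Disease plus metformin set against metformin addressed what differed with disease under the drug. Of 9132 measured genes 73 (0.799%) were at least 2-fold higher and 160 (1.75%) at least 2-fold lower, with a median log2 ratio of −0.05. The metformin library is shared with the comparison of metformin and healthy gingiva, and its cells with Dcpp and mitotic transcripts appear again: 15 of 19 measured cell cycle genes and 6 of 9 serous gland genes were lower in disease plus metformin, while 1 serous gland gene, the kallikrein Klk1 (20.9 CPM in disease plus metformin and 5.49 CPM in metformin), was higher. Smgc was at 6613 CPM in disease plus metformin and 1888 CPM in metformin, a log2 ratio of 1.81, and Ldhb was at 54.8 and 5.69 CPM. Nr1d1, a repressor of the circadian clock, was at 9.71 and 0.785 CPM, and Ifi27l2a, an interferon-induced gene, at 36.3 and 5.69 CPM with 18.1% of its UMIs in 1 cell.

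**Figure D4:**
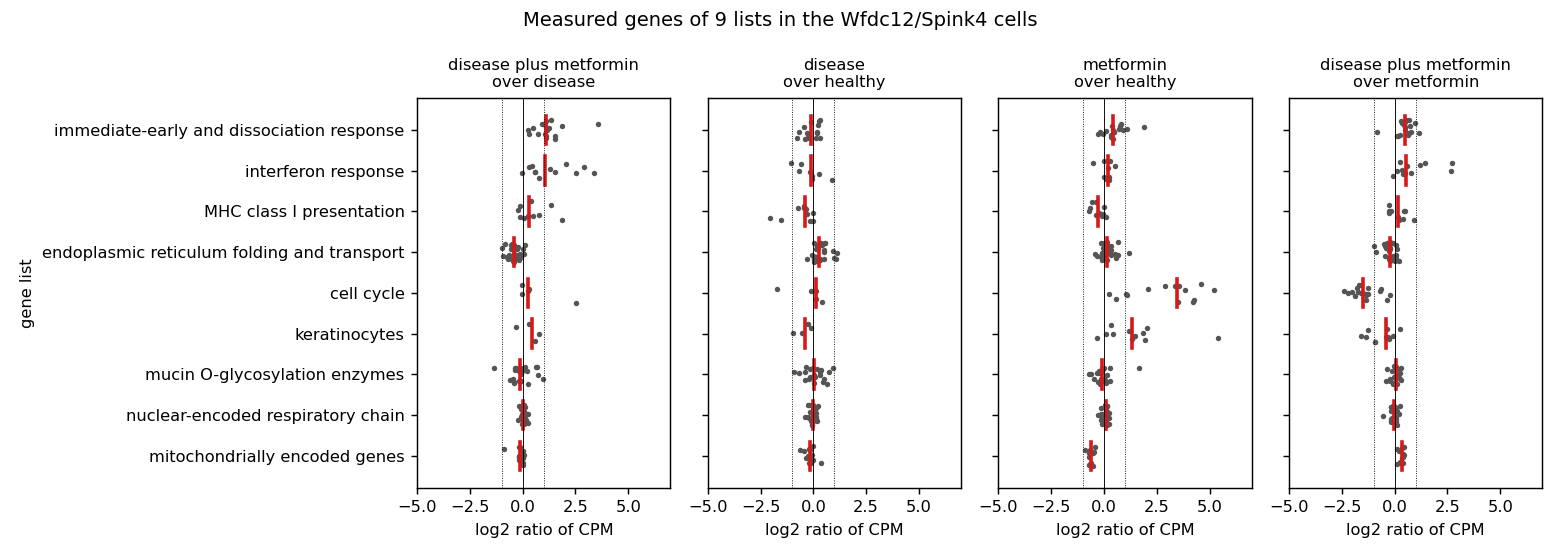
Each point is 1 measured gene of a list, with its log2 CPM ratio in Wfdc12/Spink4 cells on the x axis, for the 4 comparisons; red bars are list medians and dotted lines mark 2-fold. Most immediate-early genes and part of the interferon genes lie to the right for disease plus metformin over disease, and cell cycle genes to the right for metformin over healthy, while nuclear-encoded respiratory chain genes lie near 0 in all 4.

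A few genes were all but absent from the Wfdc12/Spink4 cells of some libraries and found in many cells of others. The rule for such genes was set after the values were seen. It took genes with at least 10 CPM in at least 20% of cells of 1 library and under 1 CPM in another. Of the 32245 gene symbols in the files 22 met this rule. Several were serous gland, mitotic or keratinocyte-rich genes highest in metformin, among them Dcpp3, Bpifa2, Ccer2, Top2a, Cenpf, Krt17 and Apoe. Apoe was at 37.1 CPM in the Wfdc12/Spink4 cells of metformin and 610 CPM in its keratinocyte barcodes. Try5 had 55.6% of its metformin UMIs in 1 cell. Amhr2, known as the receptor for anti-Müllerian hormone, had 1 UMI in 207 cells of disease plus metformin and was found in 41.9% of cells in disease, 53.0% in metformin and 37.0% in healthy gingiva, at 0.183, 28.4, 29.8 and 33.0 CPM. Lbp and Iqcg were found in 40.6% and 38.2% of cells in disease plus metformin and in 1.55% to 13.0% elsewhere. BC018473 was at 0.183, 9.80, 56.9 and 0 CPM in disease plus metformin, disease, metformin and healthy gingiva, and Pik3r6, a regulatory subunit of a lipid kinase, at 0.733, 1.96, 27.3 and 13.9 CPM.

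The Ptprn2-type cells, which come from the same libraries, gave these values beside them, in the order disease plus metformin, disease, metformin, healthy. Amhr2 was at 0, 3.19, 12.0 and 13.0 CPM there, Lbp at 48.5, 1.59, 0 and 1.36 CPM, and BC018473 at 0, 33.5, 38.7 and 0 CPM. In keratinocyte barcodes Lbp was at 0 in all 4 libraries, and BC023719 was at 8.45, 5.41, 10.4 and 0 CPM. BC023719 was thus at 0 in healthy gingiva in all 3 kinds of barcodes. Differences between the mice of the libraries cannot be told apart from differences between the conditions.

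**Figure D5:**
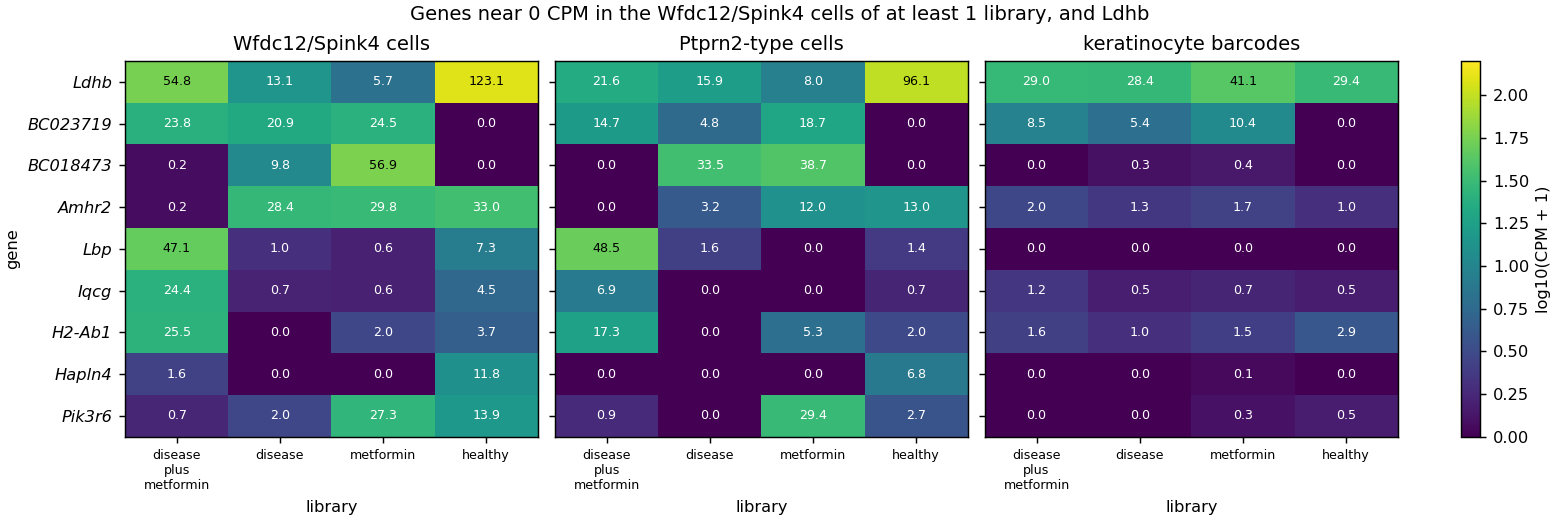
CPM of 9 genes (rows) in the 4 libraries (columns), for Wfdc12/Spink4 cells, Ptprn2-type cells and keratinocyte barcodes; colour is log10 of CPM plus 1 and the number in each cell is the CPM. Amhr2 is near 0 in disease plus metformin, BC023719 is at 0 in healthy gingiva, and H2-Ab1 is at 0 in disease in both kinds of mucous cells.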

How the data were processed

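RNA was read cell by cell in 4 gingiva libraries, 1 in each group. The deposited files hold raw UMI counts, not normalized, made by the authors with bcl2fastq and Cell Ranger 7.0.1 on build mm10, per the submitters' processing notes. Genes that share a symbol were summed (32285 features, 32245 symbols). No doublet caller was run. The members, gene lists and comparisons were chosen with earlier results of these data known.

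In each library the counts of the chosen cells were added up and scaled to CPM; intervals are exact Poisson. Ratios have conditional exact binomial intervals, with 0 UMIs set to 3. Intervals cover counting error only and treat each UMI as an independent draw. Shares have Clopper-Pearson intervals, and shares of cells with a UMI were computed after thinning each cell to 3000 UMIs, with keratinocyte barcodes (Krt5 plus Krt14 at least 1% of UMIs and above Muc5b, at least 3000 UMIs) as background. A gene was called when at least 2-fold apart, with no test. The ratio procedure was tested on simulated data.

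Named genes were the markers, the genes of the rule, list members with at least 50 UMIs, the 20 most abundant genes, the 12 highest and lowest against other gland cells, and the 8 highest and lowest in each comparison by the interval bound nearest 0. Olfm4 and genes near 0 in some libraries were named after their values were seen. Gene positions and spans are from GENCODE vM21 (GRCm38) and promoters from RefSeq. Python 3.11.15, numpy 2.4.6, scipy 1.17.1, pandas 2.3.3 and matplotlib 3.10.9 were used.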

Additional observations from a re-analysis of the deposited data

Results flagged for a closer look

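Measured genes numbered 8468 for disease plus metformin over disease and 8335 for metformin over healthy. For 6 genes the difference with metformin in the Wfdc12/Spink4 cells had opposite directions in disease and in healthy gingiva, at least 2-fold each way. With 1 library in each group this difference between differences was not tested, and the values are log2 ratios of CPM, disease plus metformin over disease minus metformin over healthy. Ldhb, a lactate dehydrogenase subunit, had log2 ratios of 2.07 within disease and −4.44 within healthy gingiva, a difference of 6.50. Smgc, a secreted gland protein whose gene overlaps Muc19, had 1.63 and −1.57, a difference of 3.20. Tff1, a trefoil factor, had −2.66 and 2.28, a difference of −4.94. Rnaset2b, a ribonuclease gene with a near-identical copy, had −3.12 and 2.56, a difference of −5.68. For Dynlt1f, one of several near-identical dynein light chain genes, the values were −1.20 and 3.12, a difference of −4.33. For Nol6, a nucleolar protein gene, they were −1.05 and 1.27, a difference of −2.31. Intervals for counting error reached inside 2-fold for Nol6, at −1.88 to −0.23 within disease and 0.32 to 2.35 within healthy gingiva. The same held for Dynlt1f within disease, at −1.83 to −0.59.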

How the results depend on the processing

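No paired analysis was possible because each group was 1 library. Of 201 values over 13 main results under 17 alternatives, 171 stayed within counting error or within 1.5 times. The share of mucous cells moved to 73.1% in disease plus metformin and 58.0% in healthy gingiva with at most 10% mitochondrial UMIs, to 53.5%, 63.1% and 41.6% in disease plus metformin, disease and healthy gingiva with Spink4 plus Wfdc12 at least 2 times the other sum, and to 65.2% in metformin without cells with 3 or more mitotic UMIs. Genes at least 2-fold apart numbered 168 for disease over healthy, 265 for metformin over healthy, 238 for disease plus metformin over disease and 233 for disease plus metformin over metformin. In that order they numbered 1462, 1525, 1313 and 1468 with no gene minimum and 34, 49, 63 and 46 with a minimum of 200 UMIs. With every cell weighted equally the counts were 271, 427 and 396 for the comparisons other than disease plus metformin over disease. Without cells with 3 or more mitotic UMIs, chosen after the data were seen like the other cell exclusions, metformin over healthy had 117 and disease plus metformin over metformin 139. Without those cells the share higher was 77.8% instead of 87.9% and 49.6% instead of 31.3%.

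Cell cycle genes apart for metformin over healthy were 6 instead of 12 without cells above the 95th percentile of UMIs, 2 with a minimum of 200 UMIs, 0 without mitotic cells and 7 without cells with 0.1% keratinocyte UMIs; for disease plus metformin over metformin they were 8 instead of 15 with that minimum and 0 without mitotic cells. Interferon genes for disease plus metformin over disease were 11 instead of 6 with no minimum and 3 with a minimum of 200. Keratinocyte genes for metformin over healthy were 12 instead of 7 with no limit on 1 barcode's share, 3 without Dcpp cells and 2 without mitotic cells. Leaving out mitotic or Dcpp cells lowers cell cycle or Dcpp counts by construction. Of 1088 values for named genes 940 stayed within the counting interval, 147 moved outside it and 1 reversed. Counted over all 1088 values, 79 (33 ratios) shifted by over 1.5 times, some of them inside wide intervals. Bex4 in disease plus metformin over disease was 3.37 without cells above the 95th percentile of UMIs (5.14 otherwise, interval 2.61 to 10.5). The reversed value was Dcpp1 in metformin over healthy, at −0.060 without cells with 1% Dcpp and Bpifa2 UMIs, against 4.01 with them. With every cell weighted equally the log2 ratio was −5.05 for Amhr2 in disease plus metformin over disease (−7.28 otherwise), −1.50 for Colec12 and −3.70 for Cyp2f2 in disease over healthy (−3.10). Dmbt1 in disease over healthy was −3.54 with the 2 times rule (−2.76), and Ldhb in metformin over healthy −5.18 without mitotic cells (−4.44). Libraries without replicates and genes at few UMIs limit all values.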
